A study of Mus musculus with 2 samples.

Results

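Genes of the ephrin, semaphorin, plexin, netrin and Slit guidance systems were examined in mouse back skin that had received FGF18 or phosphate-buffered saline (PBS). The members were all genes whose name on the array begins with that of an ephrin (Efna, Efnb), an Eph receptor (Epha, Ephb), a semaphorin, a plexin of class A to D, a Slit, a Robo or a netrin, or is Nrp1, Nrp2 or one of Unc5a to Unc5d. The rule took 66 genes of 27576 on the array, 34 ligands and 32 receptors, represented by 120 probes. The rule used names alone and no measured value.

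FGF18 is a secreted fibroblast growth factor made in the hair follicle, and the series asked which transcripts of skin it affects when given in anagen, when follicles are growing hair. Both groups were male C3H/HeN mice, 61 days old, whose back hair had been removed to start anagen 5 days before. The FGF18 group was injected under the skin with 1 µg of FGF18 protein on day 4, the control group received PBS in its place, and full-thickness skin was taken 24 h later. RNA was pooled within each group according to the design text, and 1 single-colour Agilent array was hybridised per group. There was no replicate of either group, so no test was made, no p-value is given, and a difference between the arrays cannot be told apart from a difference between the pools of mice. The labels of the PBS sample give anagen in its source name and hair cycle entry but carry the word telogen, the resting phase, in its title. In whole skin, fewer cells of a type and less RNA per cell cannot be told apart.

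Guidance molecules were first described in growing axons, which they attract or repel. Ephrins are held on the cell surface and bind Eph receptor tyrosine kinases on the neighbouring cell, with signals running in both directions. Most semaphorins signal through plexins, the secreted class 3 members together with a neuropilin that helps them bind. Slit proteins bind Robo receptors, and netrins bind DCC, neogenin and the Unc5 receptors. In skin the same molecules act in epithelial sheets, in blood vessels and at the borders between cell groups as well as in the sensory nerves.

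Each value below is a processed signal, a fluorescence intensity after background subtraction, or a log2 ratio of the FGF18 to the PBS array after both were scaled to their 75th percentile. Signals of different probes are not compared with each other. A probe counted as measured where it was well above background. All 34 ligands were measured on both arrays, as were 24 of the 32 receptors. Of the other 8 receptors, Epha3 and Epha7 were measured on the PBS array only and Epha5 on the FGF18 array only. Epha6, Epha8, Epha10, Unc5c and Unc5d were not well above background on either array. The markers of skin were present: Krt5, Krt14, Krt15, Krt10 and Trp63 of keratinocytes and Krt27, Krt71, Krt35, Krt85 and Shh of the growing follicle were all measured on both arrays. Among the other lists, chosen with earlier results of these data known, 6 of 6 interferon-response genes were higher on the FGF18 array. The log2 ratios of these genes were 2.26 to 3.41. Gzmb, a granule protease of cytotoxic T and NK cells, was at 4.44 with signals of 1430 and 58.1, while the T cell genes Cd3e (-0.45) and Cd3g (-0.49) were lower, Cd8a was not well above background on either array and Ncr1 was measured on the FGF18 array only. Their part in the values of the guidance genes was not tested.

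Guidance genes differed little between the arrays, and no more often than other genes. At least 2-fold, 1 of 58 measured members differed (Unc5b, lower with FGF18), beside 2.53% of all 16610 measured genes, of which 0.987% were lower and 1.54% higher on the FGF18 array. At 1.5-fold, 3 members differed, Epha1 higher and Unc5b and Efna5 lower, a share of 5.17% of the members beside 8.61% of all genes, of which 3.79% were higher and 4.82% lower on the FGF18 array. All genes centred on a median log2 ratio of -0.07, with a spread of 0.40 (SD over genes), and the sides given for families below are relative to that centre, while the 2-fold and 1.5-fold counts are of the ratios as scaled. Relative to the centre, 0 members reached 2-fold, Unc5b lying at -0.94. The SD over the 58 members was 0.30. Beside this, ligands leaned lower and receptors higher. The median log2 ratio was -0.21 for the 34 ligands, of which 9 lay above the median of all genes, and 0.05 for the 24 receptors, of which 15 lay above it; by construction 50% of all genes do. Without the 9 plexins, the other 15 receptors had a median of -0.18, with 7 of them above the median of all genes.

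Technical error sets what these ratios can show. The extraction software gives each processed signal an error, and carried through to the log2 ratio it had a median of 0.20 for the members, the same as for all genes. Epha1, Unc5b, Efna5, Efnb1, Sema3b and Nrp2 all had an identical error of 0.204. For such bright genes with 1 measured probe, 2 errors are therefore the same fixed cut, and the equal medians carry no information. By this measure 9 of 58 members, or 15.5%, lay farther than 2 errors from the median of all genes, and 17.1% of all genes did. The 9 were Epha1, Plxnb3 and Plxnd1 above, beside 9.46% of all genes, and Unc5b, Efna5, Sema3b, Efnb1, Sema6d and Sema3f below, beside 7.6% of all genes. The errors of several probes were combined as independent, so a gene with more measured probes tended to have a smaller error. Sema3f and Sema6d, with 2 measured probes each, passed at -0.32 and -0.37 from the median (errors of 0.14 and 0.16). Plxnb2 and Sema4f, with 1 each, lay farther from it at 0.38 and 0.43 (errors of 0.20 and 0.23) and did not pass. Probes printed as at least 8 spots repeated more closely within the arrays. Single spots of such a probe typically scattered by an SD of 0.11 on the log2 scale where it was dim, 0.041 at middling brightness and 0.026 where it was bright. Neither error covers differences between mice, RNA extractions or labelling. For 23 members with several measured probes, the probes spread by a median of 0.21 on the log2 scale and by 0.74 at most.

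**Figure D1:**
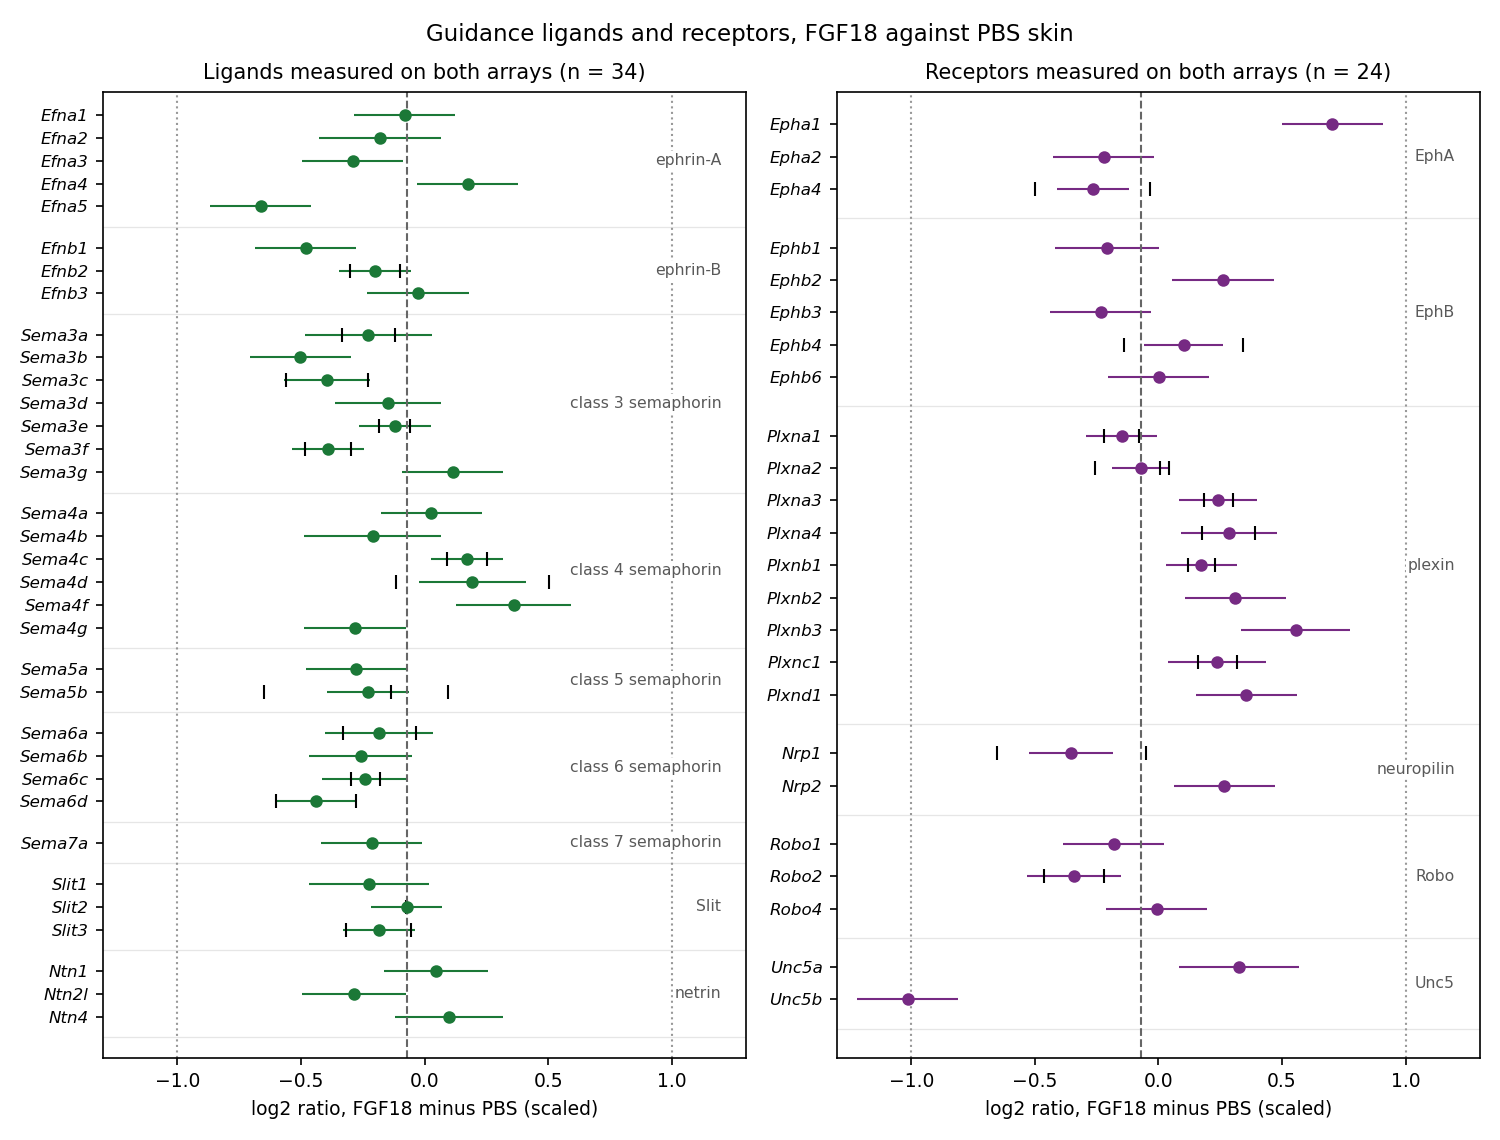
Log2 ratio, FGF18 minus PBS, of the 34 ligands and 24 receptors measured on both arrays, by family. Dots are genes (means over measured probes), bars the software error of the ratio, ticks the separate probes, the dashed line the median of all genes (-0.07) and dotted lines 2-fold; Unc5b (-1.02) and Epha1 (0.70) stand farthest from the median, and 7 of the 9 plexins lie above 0.

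Epha1 and Unc5b stood at the ends of the range. The 250 bases before their start sites are shown because these are the members that differed most, with letters in capitals that match a GC box (GGGCGG), an ETS core (CCGGAA), an AP-1 site (TGANTCA) or an interferon-stimulated response element on either strand, where matches may overlap. Both windows are from RefSeq on build GRCm38.p6 and read 5′ to 3′ on the gene's strand, which is the minus strand for both genes, at chr10:60831582-60831831 for Unc5b and chr6:42373269-42373518 for Epha1.
Unc5b: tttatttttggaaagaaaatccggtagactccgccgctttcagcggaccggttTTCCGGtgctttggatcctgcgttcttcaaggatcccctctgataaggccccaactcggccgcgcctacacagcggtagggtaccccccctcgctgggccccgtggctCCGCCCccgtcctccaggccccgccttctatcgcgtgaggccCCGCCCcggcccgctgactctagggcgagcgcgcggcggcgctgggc
Epha1: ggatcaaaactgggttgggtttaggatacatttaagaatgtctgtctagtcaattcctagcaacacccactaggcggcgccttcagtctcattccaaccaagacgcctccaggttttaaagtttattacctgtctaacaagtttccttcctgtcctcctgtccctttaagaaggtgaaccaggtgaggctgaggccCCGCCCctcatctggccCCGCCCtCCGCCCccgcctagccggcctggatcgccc
The Unc5b window held 2 GC boxes and 1 ETS core, and the Epha1 window 3 GC boxes. Neither held an AP-1 or interferon response match in these letters. RefSeq windows were matched for 57 of the 66 members, 73 windows in all, and had a median GC content of 64.4% beside 52.4% for all 32851 windows of the table, which also cover non-coding genes. A GC box was found in 71.2% of the members' windows and 32.7% of all windows, an ETS core in 9.59% and 12.0%, and an AP-1 match in 4.11% and 6.75%. The interferon response letters were found in 2.74% of the members' windows, those of Plxnc1 and Sema6b, and in 2.98% of all windows. A match describes the letters and is not a binding site.

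Ephrins, the membrane-held ligands of Eph receptors, lay at or somewhat below the other genes, with a median log2 ratio of -0.19 and 6 of 8 below the median of all genes. Efna5, a ligand linked to the membrane by a lipid anchor, had signals of 2150 on the FGF18 and 3000 on the PBS array. Its log2 ratio of -0.66, or 1.58-fold lower with FGF18, was the lowest of the 34 ligands. A second Efna5 probe had signals of 24.2 and 39.1 and was measured on the PBS array only, so it did not enter the ratio; it was lower on the FGF18 array too. Efnb1, a transmembrane ligand that marks boundaries between cell groups, had signals of 5800 and 7140 and a log2 ratio of -0.48 ± 0.20 (software error). Efna3 followed at -0.29 (signals of 1400 and 1510).

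In the other direction, Efna4 had signals of 931 and 727 and a log2 ratio of 0.17, less than 2 software errors from the median. Efnb3 (-0.03, signals of 463 and 416) and Efna1 (-0.08, 1920 and 1790) were level with the other genes. Efnb2, the ephrin of arterial endothelium, had 2 measured probes at -0.30 and -0.10, and Efna2 lay at -0.18.

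Among Eph receptors, Epha1 was set apart from the rest. Epha1, a receptor first known from epithelial tissue, had a signal of 19200 on the FGF18 and 10400 on the PBS array. This is a log2 ratio of 0.70 ± 0.20 (software error), or 1.63-fold higher with FGF18, which places it at percentile 97.3 of all genes. It was measured by 1 probe, and the difference has no second probe to set beside it. The other measured A-class receptors were lower by small amounts: Epha2 had signals of 6510 and 6690 (log2 ratio -0.22), and the 2 probes of Epha4, a receptor that binds ephrins of both classes, were at -0.50 (1470 and 1830) and -0.03 (307 and 277). The keratinocyte genes Krt5, Krt14, Krt15, Krt10 and Trp63 had log2 ratios of -0.39 to 0.02, all below the ratio of Epha1. The part of keratinocyte content in the Epha1 value was not tested.

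The B-class receptors straddled the median of all genes, 3 above and 2 below. Ephb2, with signals of 639 and 470, was highest at 0.26, and Ephb3, with 5700 and 5910, lowest at -0.23. The probes of Ephb4, the partner of Efnb2 on venous endothelium, disagreed in sign, at 0.34 for a dim probe (114 and 79.3) and -0.14 for a brighter one (683 and 663). Ephb6, which lacks kinase activity, was at 0.00, and Ephb1 at -0.21. None of the 5 lay beyond 2 software errors.

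The 3 dim Eph receptors named above were measured on a single array, and for these only a nominal fold is given, which makes no allowance for error. It is set by the dimmest signal counted as above background (23.3 on the FGF18 and 24.2 on the PBS array), or by the gene's own signal on the dim array where that is higher, as for Epha7. Epha3 was nominally 1.93-fold lower with FGF18 (signals of 17.3 and 39.7), and Epha7 1.22-fold lower (33.1 and 35.6). For Epha7 this is the observed log2 ratio of -0.29, smaller in size than its software error of 0.45. Epha5 was nominally 1.62-fold higher (44.5 and 23.3). The software errors of the log2 ratios were 0.56 for the Epha3 probe and 0.47 for the Epha5 probe. All these signals lie near the floor, and no nominal fold reached 2-fold.

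Class 3 semaphorins, the secreted ones, lay below the median of all genes in 6 of 7 cases, with a median log2 ratio of -0.23. Sema3b had signals of 2360 and 2950 (log2 ratio -0.50 ± 0.20, software error), and both probes of Sema3f, a repellent that acts through Nrp2, were lower, at -0.48 (620 and 764) and -0.30 (591 and 640). Both probes of Sema3c were lower as well, at -0.56 (58.5 and 76.1) and -0.23 (151 and 156). Sema3a, the repellent of sensory axons that binds Nrp1, was dim, with 2 probes at signals of 50.8 and 35.6 on the FGF18 and 48.7 and 39.6 on the PBS array, and a log2 ratio of -0.23. Sema3d (-0.15) and Sema3e (-0.12), the ligand of Plxnd1, were within 1 software error of the median of all genes, as was Sema3a. Sema3g was the exception above the median, at 0.11 with signals of 2210 and 1800, also within 1 software error of it.

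The membrane-bound semaphorins lay on both sides. Of class 4, 4 of 6 lay above the median of all genes: Sema4f at 0.36 (119 and 81.7), Sema4d at 0.19, Sema4c at 0.17 and Sema4a at 0.03 with signals of 4830 and 4180. The probes of Sema4c had signals of 1310 and 579 on the FGF18 and 969 and 480 on the PBS array. The 2 probes of Sema4d, a ligand of Plxnb1 that is also made by lymphocytes, were at 0.50 and -0.12, so its place rests on a probe with signals of 46.6 and 29.0. Sema4b (-0.21) and Sema4g (-0.28) lay below, and none of the 6 was beyond 2 software errors. All 7 members of classes 5, 6 and 7 lay below the median of all genes, at -0.44 to -0.18. Sema6d, a ligand of A-class plexins, was lowest of these, with probes at -0.60 (87.6 and 117) and -0.28 (665 and 710). Sema5a, Sema5b, Sema6a, Sema6b and Sema6c lay between -0.28 and -0.18. Sema7a, which is held by a lipid anchor and binds Plxnc1, had signals of 1760 and 1800, a log2 ratio of -0.21. The 3 probes of Sema5b spread from -0.65 to 0.10. Of classes 5, 6 and 7, only Sema6d lay beyond 2 software errors. Sema5b, Sema6a, Sema6b, Sema6c and Sema7a lay closer to the median of all genes than their software errors, so their side is not clear.

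Plexins, the semaphorin receptors, leaned the other way, with a median log2 ratio of 0.24 over 9 genes. Plxnb3 had signals of 210 and 126, a log2 ratio of 0.56 ± 0.22 (software error) or 1.47-fold higher with FGF18. Plxnd1, the plexin of endothelium, had signals of 1050 and 724 (0.35 ± 0.20). Plxnb2, a plexin of many epithelia, had signals of 7960 and 5660 (0.31), while its second, dim probe (20.8 and 31.4) was measured on the PBS array only and lay lower on the FGF18 array. The 7 plexins above 0 ranged from 0.17 to 0.56, and none reached 1.5-fold.

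Where plexins had several probes, these mostly ran together. The probes of Plxnb1, the Sema4d receptor, were at 0.23 and 0.12, those of Plxna3 at 0.30 and 0.18, those of Plxna4 at 0.39 and 0.18, and those of Plxnc1 at 0.32 and 0.16. Plxna2 was level with the median of all genes at -0.07 over 3 probes, and Plxna1 lay below it at -0.15, with signals of 1570 and 397 on the FGF18 and 1460 and 408 on the PBS array. The Plxna2 probes had signals of 2720, 997 and 417 on the FGF18 and 2390, 854 and 439 on the PBS array. Plxna1 and Plxna2 are A-class plexins, whose median over 4 genes was 0.09, beside 0.31 for the 3 of class B. Only Plxnb3 and Plxnd1, each measured by 1 probe, lay beyond 2 software errors from the median of all genes. Plxna3, Plxna4, Plxnb1, Plxnb2 and Plxnc1 lay between 1 and 2 errors above it. Some of these distances shrank with other processing. Over the 16 settings described below, Plxnb3 (0.63 above the median as reported) fell to 0.38 at the lowest. Plxna3 (0.31) fell to 0.19, Plxna4 (0.35) to 0.15 and Plxnc1 (0.31) to 0.14.

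For the neuropilins, which plexins use to bind class 3 semaphorins, it was not clear whether they shared a direction. Nrp2, found in veins and lymphatic vessels, had signals of 12600 and 9230 and a log2 ratio of 0.27, less than 2 software errors from the median. Nrp1, the co-receptor for Sema3a and for VEGF in vessels, lay at -0.35 over 2 dim probes at -0.65 (59.6 and 82.7) and -0.05 (116 and 106). Another Nrp1 probe, at 34.5 and 18.2, was measured on the FGF18 array only and ran the other way, so Nrp1 has no clear direction.

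Set beside their usual partners, some ligands and receptors lay on opposite sides of the median of all genes and others on the same side. The class 3 semaphorins had a median of -0.23 and the plexins 0.24. Sema3f at -0.39 stood against Nrp2 at 0.27, Sema3e at -0.12 against Plxnd1 at 0.35, and Sema7a at -0.21 against Plxnc1 at 0.24. Sema3e and Sema7a, however, lay closer to the median of all genes than their software errors (-0.05 with an error of 0.15, and -0.14 with 0.20). The side of these ligands is therefore not clear. Sema4d and Plxnb1 were on the same side, at 0.19 and 0.17, as were Sema3a (-0.23) and Nrp1 (-0.35), although Sema4d and Nrp1 change side with the choice of probes. Sema3a also lay closer to the median than its software error (-0.16 with an error of 0.26). Slit1 (-0.23) and Slit3 (-0.18) lay below the median with Robo1 (-0.18) and Robo2 (-0.34), while Slit2 (-0.07) was level with it and Robo4 (-0.01) above. Of these Slit and Robo genes, all but Robo2 lay closer to the median than their software errors, so their side is not clear. Efnb2 (-0.20) and Ephb4 (0.10) lay on opposite sides, though the probes of Ephb4 disagreed in sign. Efnb2 was closer to the median than its software error (-0.13 with an error of 0.15). The median of receptors was 0.26 above that of ligands on the log2 scale, with no replicate to give that gap an error.

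**Figure D2:**
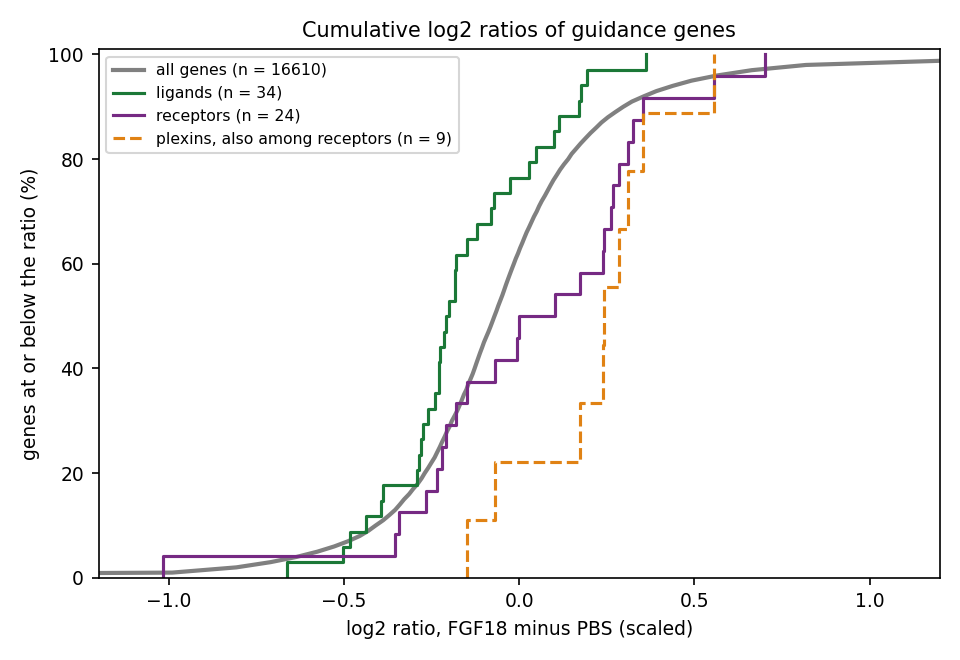
Share of genes (%) at or below each log2 ratio, FGF18 minus PBS, for ligands (34), receptors (24), the 9 plexins among them and all 16610 measured genes. The medians, where each curve crosses 50%, are -0.21 for ligands, 0.05 for receptors, 0.24 for plexins and -0.07 for all genes.

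Slit and Robo genes were near the other genes. Slit3, made by mesenchymal cells, had 2 probes at -0.05 and -0.32, with signals of 1760 and 5950 on the FGF18 and 1610 and 6530 on the PBS array. The 2 measured probes of Slit2 were at -0.08 (1830 and 1700) and -0.07 (495 and 458), and Slit1, at 96.1 and 99.1, lay at -0.23. Robo1 had the same signal of 2080 on both arrays, which is -0.18 after scaling. Robo2 was dim and had 2 measured probes of 6, at -0.22 (52.9 and 54.4) and -0.46 (60.4 and 73.4). Robo4, the endothelial Robo, was at -0.01 with signals of 1840 and 1630. None of these 6 genes lay beyond 2 software errors.

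Endothelial members can be read beside endothelial markers. All 6 of Tek, Cdh5, Pecam1, Emcn, Tie1 and Kdr were measured, with log2 ratios from -0.12 to 0.58 and a median of 0.07. Their summed signals were 4179 on the FGF18 and 3243 on the PBS array. The sums in this paragraph are not scaled, and the FGF18 array was the brighter one (75th percentiles of 1020 and 899). They are also dominated by the brightest probes, so the log2 ratios are the better guide. Kdr, the main VEGF receptor, had the highest log2 ratio of the endothelial markers, with signals of 1005 and 592. Plxnd1 (0.35) lay inside the range of the marker ratios, as did Robo4 (-0.01), Ephb4 (0.10) and Nrp2 (0.27), while Efnb2 (-0.20) and Nrp1 (-0.35) lay below it. The upper part of that range was Kdr and Tie1 (0.39) alone. Tek, Cdh5, Pecam1 and Emcn lay at -0.12 to 0.10, below Plxnd1 and Nrp2. Markers of other cells differed as well. The fibroblast genes Col1a1, Col1a2, Col3a1, Lum and Pdgfra, all 5 measured, had log2 ratios of -0.75 to -0.19. Their summed signals were 51186 and 57081, of which Lum alone gave 37500 and 38300. Of the follicle genes, Krt27 (-0.84) and Krt71 (-0.63) were lower and Shh (-0.14), Krt85 (-0.02) and Krt35 (0.07) closer to the median, with summed signals of 196605 and 228982. Above the median of all genes lay 4 of 4 melanocyte genes (Tyr, Dct, Pmel, Mlana; 0.01 to 0.69, summed signals of 48625 and 35144) and 4 of 4 skeletal muscle genes (Actn3, Ckm, Myh4, Acta1; 0.06 to 0.85, summed signals of 316963 and 248121). The part of any of these cell types in the guidance values was not tested.

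In the netrin system the receptor Unc5b was the member that differed most. Unc5b, which signals repulsion from netrin and acts in vessel tips, had a signal of 1100 on the FGF18 and 1960 on the PBS array. Its log2 ratio was -1.02 ± 0.20 (software error), or 2.02-fold lower with FGF18, at percentile 0.945 of all genes. It lies on the threshold: it was -0.99 with quantile normalization, -0.98 with normexp, -0.97 with loess, -0.91 when arrays were scaled to the median spot, -0.90 in the value table, -0.83 unscaled and -0.24 with spike-in scaling. Relative to the median of all genes it lay at -0.97 to -0.84 in all 16 settings and so reached 2-fold in 0 of them. It was measured by 1 probe. Unc5a, dim at 111 and 78.1 and also measured by 1 probe, was at 0.33 in the other direction. It lay less than 2 software errors from the median of all genes.

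The netrins themselves showed no such difference. Ntn1, the classical netrin, had 1 measured probe of 2, with signals of 239 and 204 (log2 ratio 0.05), and Ntn4, a netrin of basement membranes, was at 0.10 with signals of 147 and 121. Ntn2l, now named Ntn3, was at -0.29 with signals of 200 and 215. Neo1, the netrin and RGM receptor neogenin, lay at -0.32 over 3 probes spread from -0.85 to 0.06, and Dcc was not well above background on either array. Ntn5, which the array names Gm484 and the rule therefore left out, was at -0.28 with signals of 43.4 and 46.4.

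**Figure D3:**
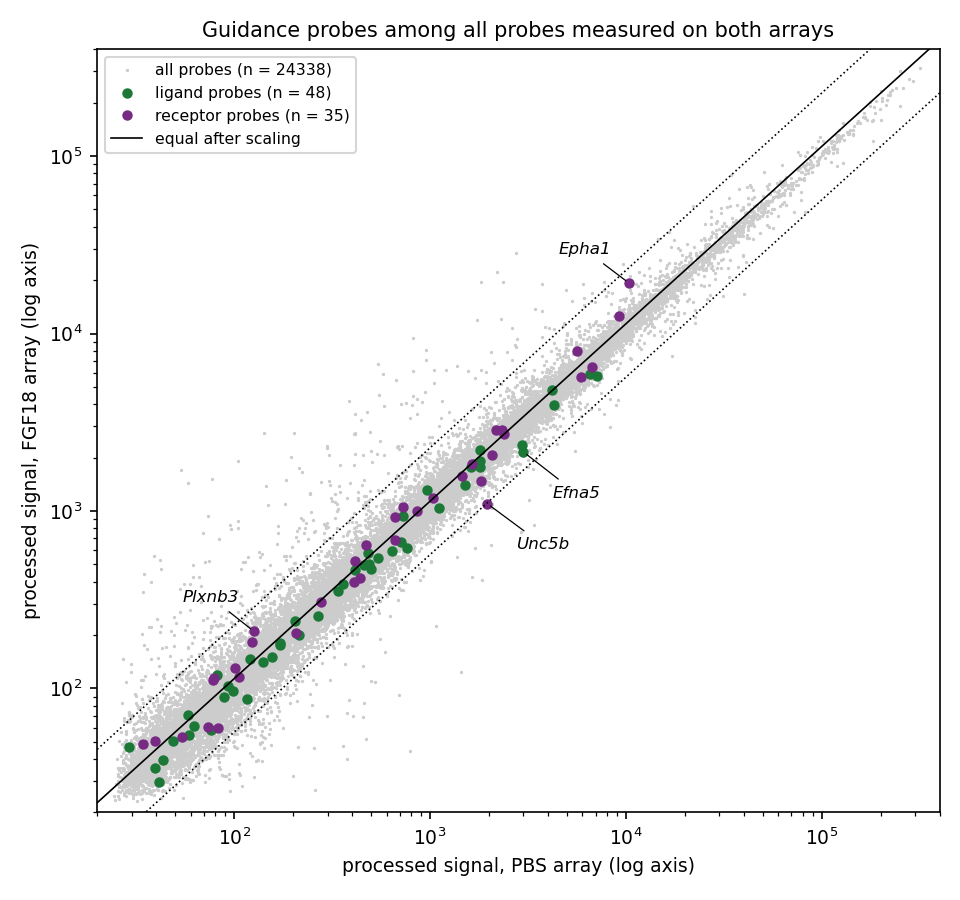
Processed signal on the PBS array (x) and the FGF18 array (y), both log axes, for all 24338 probes measured on both arrays and for 48 ligand and 35 receptor probes. The solid line is equality after scaling and the dotted lines 2-fold; the guidance probes follow the line, with Epha1 (19200 and 10400) above it and Unc5b (1100 and 1960) on the lower dotted line.

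Outside the rule, 73 partner genes of the pathway were listed: co-receptors, adhesion partners and intracellular effectors of guidance receptors. Of 65 measured on both arrays, 1 was at least 2-fold higher and 0 lower, beside 2.53% of all genes, and their median log2 ratio was -0.12. The 1 was Cd72, a B cell receptor for Sema4d, at 3.06-fold higher, with signals of 1001 and 288 and both probes at 1.59 and 1.64. Rhoa, the GTPase that contracts the cytoskeleton downstream of plexins and Eph receptors, had 2 probes at 0.48 and 0.85 and mean signals of 4856 and 2692. Kdr (0.58) followed, and Vav2, an exchange factor activated by Eph receptors, was at 0.32 with mean signals of 121 and 85.1.

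The lowest partners were Dpysl4 (-0.65, signals of 144 and 199), a relative of the proteins that carry semaphorin signals to microtubules, Mical3 (-0.62, 62.9 and 85.5), Rock1 (-0.59, means of 169 and 225), a kinase that RhoA activates, and Plxdc2 (-0.53, 3240 and 4130). The lower value of Rock1 held over its 3 probes, at -0.74 to -0.48. Rhoa and Rock1, which act in 1 chain, stood on opposite sides, while Rock2 (-0.13), Rac1 (-0.15) and Cdc42 (0.05) stayed near the median of all genes.

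The lean of ligands and receptors was small but did not turn with the processing of the same arrays. On the receptor side it was a lean of the plexins. As scaled in the report, the other 15 receptors had a median of -0.11 relative to that of all genes. Relative to the median of all genes in the same setting, the ligand median lay below 0 in all 16 settings tried and the receptor median above 0. The count of plexins above the median of all genes was 6 to 8 of 9. It was 6 where probes measured on 1 array only were let in: the dim probe of Plxnb2 took that gene to -0.23, and Plxna2, at -0.07, came to lie just under the shifted median of all genes. As scaling by a constant cannot move these relative values, 6 of the 15 alternatives, the value table among them, could not have changed them beyond rounding.

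**Figure D4:**
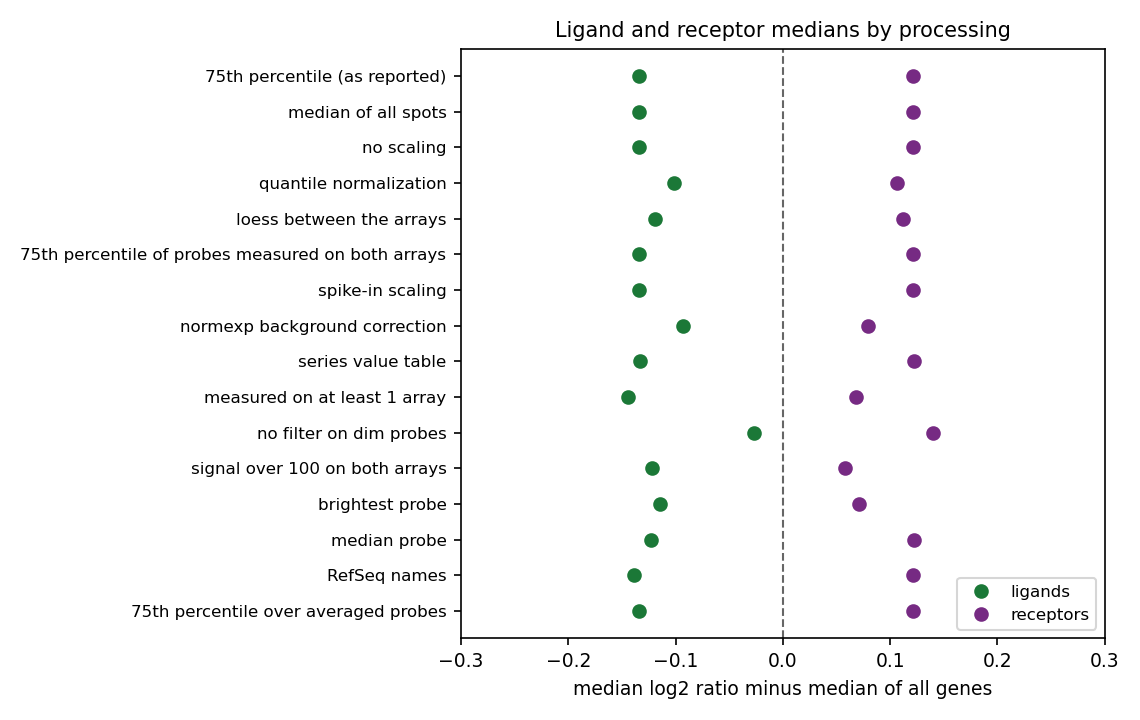
Median log2 ratio of ligands and receptors minus the median of all genes (x) under each processing setting (y). Ligand medians lie at -0.14 to -0.03 and receptor medians at 0.06 to 0.14.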

How the data were processed

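Poly(A) RNA of back skin was measured on 1 single-colour Agilent array per group, 2 arrays in all, so no replicate error exists. Per the file headers, the intensity values are processed signals from Feature Extraction 9.5.3.1 (protocol GE1-v5_95_Feb07, array design 014868), background-subtracted within the array and not scaled between arrays; the deposited flags for background and outliers were used as given. The series value table holds the authors' ratio of each processed signal to its array's median (83.8 and 80) and was an alternative. Pooling of RNA within groups is stated in the design text, whereas the extraction protocol speaks of separate extraction. A probe was measured where at least 0.5 of its spots were well above background, as were 62.4% of spots on the FGF18 and 61.5% on the PBS array; no spot was saturated. Signals were divided by the 75th percentile (1020 and 899), taken to log2, and averaged over spots and then over measured probes of a gene. A gene was counted as different at 2-fold, with 1.5 and 3 as alternatives. The members of the families were keyed by the name on the array, and other genes by RefSeq names where matched. The text gives signals for members past 2-fold, for the 3 highest, 3 lowest and 2 brightest of each family, and for the 4 highest and 4 lowest partners; others were chosen after their values were seen. The members and lists were chosen with earlier results of these data known. The computation used Python 3.11.15 with pandas 2.3.3 and numpy 2.4.6, and limma 3.58.1 in R 4.3.3 for normexp (offset 50), and was tested on simulated data. Scaling, background correction, filter, probe choice, gene names and threshold were varied; 1 scaling, the 75th percentile over averaged probes, was added after the data were seen.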

Additional observations from a re-analysis of the deposited data

How the results depend on the processing

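With 1 array per group no array could be left out, and no paired analysis was possible because each group has 1 sample. The signs of the ligand and receptor medians relative to all genes and of their gap did not turn in the settings tried, but 11 of 58 members lay on both sides of the median of all genes across settings. Among these, Plxnb2 (0.31 in the report) was -0.23 with probes measured on at least 1 array or no filter, and Nrp1 (-0.35) was 0.01 with the same settings and -0.05 with the brightest probe or signals over 100. Ephb4 and Sema4d (0.10 and 0.19) were -0.14 and -0.12 with the brightest probe or signals over 100, and Slit2 (-0.07) was 0.01 with no filter. The count of receptors past 2-fold, 1 in the report, was 0 with the median of all spots, no scaling, quantile normalization, loess, the 75th percentile of probes measured on both arrays or over averaged probes, normexp, the series value table or a threshold of 3. It was 2 with probes measured on at least 1 array or a threshold of 1.5, and 10 with spike-in scaling. The count of ligands, 0 in the report, was 1 with spike-in scaling or a threshold of 1.5, and that of partner genes, 1 in the report, was 6 and 5. Relative to all genes, the ligand median of -0.13 was -0.0933 with normexp and -0.0267 with no filter on dim probes. The receptor median of 0.12 was 0.0791 with normexp, 0.0707 with the brightest probe, 0.0677 with probes measured on at least 1 array and 0.0582 with signals over 100. The gap between them, 0.26, was 0.21 with quantile normalization, 0.17 with normexp, 0.21 with probes measured on at least 1 array, 0.17 with no filter, 0.18 with signals over 100 and 0.19 with the brightest probe. The cause was not tested. The median of all genes moved by 0.10 with the median of spots, 0.18 without scaling, 0.11 with the value table, 0.78 with spike-in scaling and -0.11 with no filter.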
